A study of Rattus norvegicus with 9 samples.

Results

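The tissues compared were hippocampus (HC) and blood, taken from the same 3 untreated male Wistar rats, numbered 2, 5 and 7. The comparison used 6 of the 9 arrays of the study, which also measured prefrontal cortex (PFC). Total RNA of each tissue and rat was hybridized to an Affymetrix Rat Gene 1.0 ST array, whose probe sets cover whole transcripts. The rats were young, by the study's methods, and received no treatment, and Wistar is an outbred stock. The arrays were paired by rat number, and 16697 of the 29214 probe sets with a value were kept, because their mean over 3 arrays was above 6.2 in HC or in blood. This is the intensity cut-off that the study used for an expressed gene, beside a detection p-value that was not used here. A probe set above the cut-off in a tissue is called present there, which is a looser call than that of the study. Values are log2 RMA (robust multi-array average) values, and a difference is HC minus blood unless stated otherwise. The study asked how far expression in blood reflects that in the brain of the same animal.

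HC is a folded sheet of cortex known for its part in memory. It holds excitatory pyramidal and granule neurons, inhibitory interneurons, astrocytes, oligodendrocytes, microglia and vessels. Whole blood RNA comes mainly from white cells, platelets and reticulocytes, the young red cells that have lost the nucleus but still hold messenger RNA for globin and heme synthesis. HC was punched from frozen brain slices, and its RNA was extracted with TRIzol and a column kit. Blood was drawn into PAXgene tubes, and its RNA was isolated with the kit for these tubes. Tissue and extraction therefore cannot be told apart. In bulk samples, fewer cells of a type and less RNA per cell cannot be told apart either.

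Mean values of the arrays ranged from 6.15 to 6.2. Spearman's rank correlation over probe sets, given as a description because they are not replicates, was 0.995 to 0.996 within HC, 0.957 to 0.968 within blood and 0.751 to 0.767 between the tissues. The median standard deviation (SD) of the 3 arrays was 0.07 in HC and 0.22 in blood, and blood had the wider SD for 88.6% of the kept probe sets. In HC, 221 kept probe sets had the same value in all 3 arrays, against 4 in blood. Background was read from probe sets of chemosensory receptors (smell and taste), for which neither tissue is known. Their 95th percentile was 5.52 in blood and 4.88 in HC. Where a gene lay at or below this level in a tissue, it was not above background there, and the difference is also given with that tissue raised to the level, as a lower limit of its size (written "raised"). For a gene with several probe sets, the brightest of them over the 6 arrays was taken. Where a value is given with ±, it is the standard error of the difference in the paired limma fit (n = 3 rats). The fit moderates this error across probe sets, so it is not a measure of the spread of the 3 differences of a gene.

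Most kept probe sets differed between HC and blood. In the paired limma test at an adjusted p under 0.05, 7552 (45.2%) were higher in HC, 5778 (34.6%) were lower and 3367 (20.2%) were not called. Probe sets present in only 1 tissue were kept through the tissue where they were high and so nearly had to differ, for which reason the 10789 present in both tissues were counted apart. Of these, 4709 (43.6%) were higher in HC, 3052 (28.3%) were lower and 3028 (28.1%) were not called. A further 3000 were present in HC only and 2908 in blood only. With 1 probe set per gene, 9821 genes were kept, of which 51% were higher and 28.5% lower, and of 6610 genes present in both tissues 49.8% were higher and 22% lower. These shares are the background for the gene groups below. Over all kept probe sets, 14716 of 16697 (88.1%) had the same direction in each rat. Of the 13330 called probe sets, 13271 (99.6%) did so. The latter share nearly follows from the call, which rests on the same paired differences, so it is not separate evidence that the rats were alike.

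The split between higher and lower calls rests on how the arrays are set against each other. In the deposited values 56.7% of all calls were higher in HC. After quantile normalization of the 6 arrays it was 46.6%, and after scaling on the median of shared probe sets 45.7%. After scaling on a panel of 14 housekeeping genes it was 18.6%. These scalings moved the median difference by -0.31, -0.33 and -1.37. Differences smaller than these shifts have a direction that depends on the scaling, and the gene groups for which this matters are named as such. The median difference was 0.21 over the kept probe sets, -0.12 over all 14506 genes with a symbol and 0.35 over the genes present in both tissues.

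**Figure D1:**
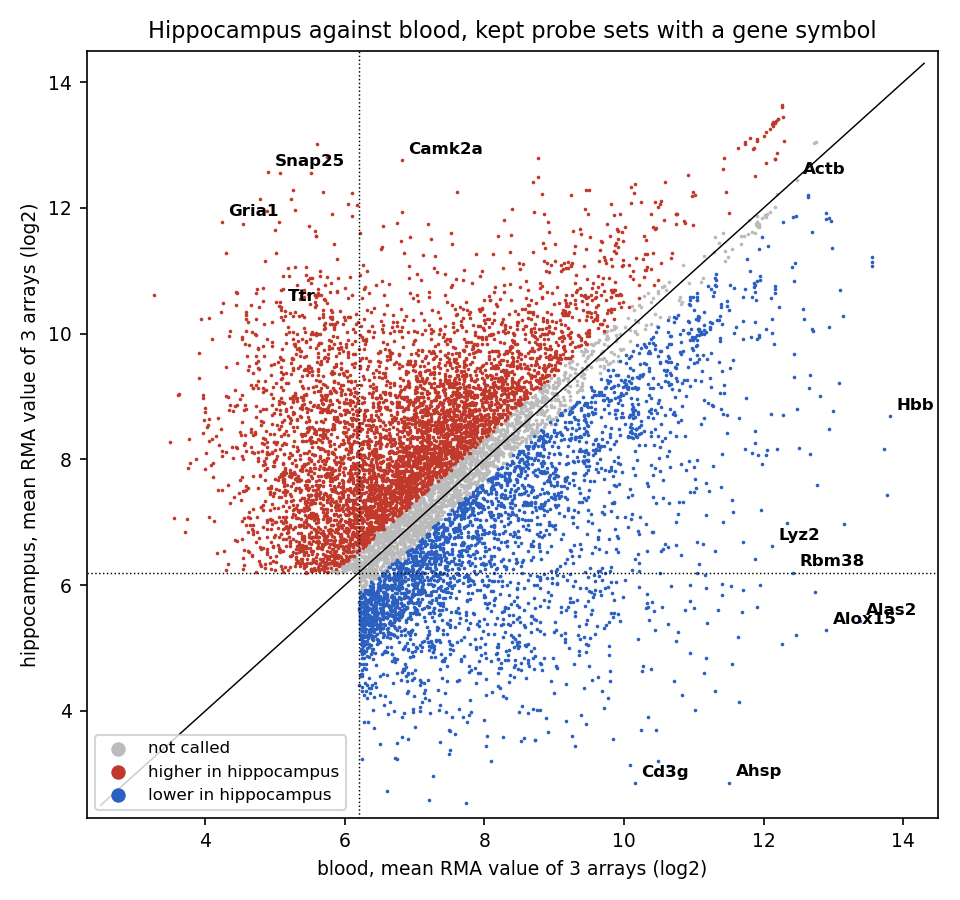
Mean RMA value in blood (x axis, log2) and in HC (y axis, log2) of each kept probe set with a gene symbol, 3 arrays per tissue. Red points were higher and blue points lower in HC at an adjusted p under 0.05, grey points were not called, dotted lines mark the cut-off of 6.2 and the solid line equality. Snap25 and Gria1 lie far above the line and Ahsp, Alas2 and Cd3g far below it, while Camk2a, Hbb and Lyz2 are past the cut-off in both tissues.

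The 10 genes with the widest difference towards HC included several of the synapse. Snap25, a protein of the complex that fuses synaptic vesicles with the membrane, had RMA values of 12.60, 12.55 and 12.55 in the HC of rats 2, 5 and 7 and of 4.49, 5.38 and 4.82 in their blood. It differed by 7.67 ± 0.19 (limma, adjusted p = 6.48e-08), and by 7.05 with blood raised to background. Gria1, a subunit of the AMPA type glutamate receptor, stood at 11.81, 11.76 and 11.77 in HC and at 4.43, 4.24 and 4.04 in blood, a difference of 7.54 (6.26 with blood raised). The groups did not overlap for either gene, which follows from their choice among the widest differences. Both genes were not above background in the blood of these rats. Gria2, another AMPA receptor subunit, differed by 7.36 (6.63 with blood raised), and Syt1, the calcium sensor of vesicle release, by 7.2 (6.23 with blood raised). Lgi1, a secreted synaptic protein, differed by 7.35, which fell to 5.10 with blood raised, the largest loss among these 10 genes. The list was completed by Gpm6a, a membrane glycoprotein of neurons (7.48, raised 7.03), Sparcl1, a matrix protein that astrocytes secrete (7.42), the tetraspanin Tspan7 (7.06), the calcium sensor Vsnl1 (7.06, raised 6.43) and Cpe, which trims neuropeptide precursors (7.04, raised 7.03).

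Among genes present in both tissues, the widest differences towards HC included further neuronal genes. Camk2a, the alpha subunit of the calcium and calmodulin dependent kinase of excitatory synapses, read 12.72, 12.71 and 12.84 in HC and 7.04, 6.32 and 7.11 in blood. It differed by 5.94 ± 0.175 (limma, adjusted p = 9.13e-08). Next were Cnih2, which accompanies AMPA receptors (5.38), the calcium sensor Hpca (5.18), Syt11 (5.12) and Ncdn (5.01). Mbp, the myelin basic protein, differed by 4.86 ± 0.241, with blood values of 6.07, 7.37 and 6.15. Its blood mean passed the cut-off through rat 5, as the other rats lay just below 6.2. Kif1b, a motor of axonal transport (4.84), the amino acid transaminase Bcat1 (4.82), the calcium sensor Ncald (4.74) and the splicing factor Rbfox1 (4.67) followed. Cnih2, Ncald and Kif1b were also close to the cut-off in blood, with means of 6.22, 6.21 and 6.26. Cnih2 read 6.64, 5.49 and 6.53 there.

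The 10 genes with the widest difference towards blood included several of red cells and immune cells. Ahsp, the chaperone that stabilizes free alpha globin, had values of 3.06, 2.76 and 2.77 in HC and 11.54, 11.68 and 11.30 in blood. It differed by -8.64 ± 0.148 (limma, adjusted p = 4.07e-08), and by -6.63 with HC raised to background. Alas2, the red cell form of the enzyme for the opening step of heme synthesis, read 5.44, 5.69 and 5.16 in HC and 13.33, 13.38 and 13.42 in blood, a difference of -7.95. Alox15, a lipoxygenase that takes part in clearing organelles from reticulocytes, differed by -7.61. All 3 were separated without overlap in the arrays of these rats, which follows from their choice among the widest differences. Hemgn, a nuclear protein of erythroid precursors, followed at -7.50 (-6.77 with HC raised), and Slc4a1, the anion exchanger of the red cell membrane, at -7.2. The other members of the top 10 were Ly6c (-7.51, raised -5.75), the T cell receptor subunit Cd3g (-7.30, raised -5.27), the scavenger receptor Cd36 (-7.29, raised -5.61), the interferon-induced gene Rsad2 (-7.25) and the secreted phospholipase Pla2g2a (-7.0, raised -6.43). Ly6c belongs to a family of similar genes, so its probes may also bind relatives.

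The genes present in both tissues with the widest difference towards blood included further red cell genes. The alpha globin gene Hba-a3 had values of 7.49, 7.49 and 7.36 in HC and 13.79, 13.79 and 13.75 in blood, a difference of -6.33 ± 0.13 (limma, adjusted p = 4.07e-08). Hbb differed by -5.12 and Hbb-b1 by -5.56, and these beta globin genes are near-identical copies whose probes may not tell them apart. The blood values of the globins lay near the top of the scale of the arrays, where differences can be understated. Rbm38, an RNA-binding protein of late erythroid cells, differed by -6.22, the phosphatase Cdc25b by -6.17 and Fech, the last enzyme of heme synthesis, by -5.36. Rbm38 was barely present in HC, at 6.13, 6.26 and 6.21. Epb41, a protein of the red cell membrane skeleton, differed by -5.48, the cold shock protein Ybx3 by -5.17 and Cdr2 by -5.04. Lyz2, the lysozyme of myeloid cells, differed by -5.49.

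**Figure D2:**
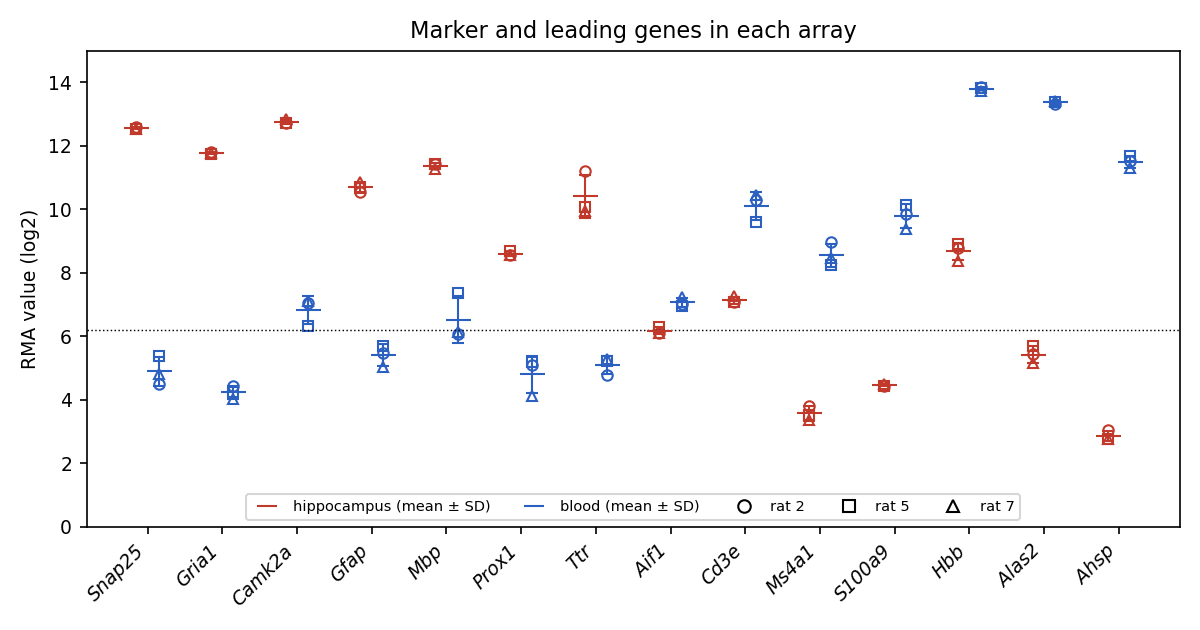
RMA value (y axis, log2) of leading genes and cell type markers in each array, with HC in red and blood in blue. Open symbols are rats 2, 5 and 7, bars show mean ± SD of 3 arrays and the dotted line is the cut-off of 6.2. The tissues are far apart for Snap25 and Ahsp, while for Aif1 they differ by -0.90.

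Promoter sequences of a few genes with wide differences are shown because motifs of the factors that govern red cell and myeloid genes can be read in some of them. They span the 250 bases before the start of each gene in RefSeq, assembly GRCr8, and all 6 lie on the minus strand. Capitals mark matches, on either strand, to CACACCC (bound by Klf1) and GAGGAA (bound by PU.1). AGATAA (bound by Gata1) and TGACGT (of the cAMP response) were searched too. The red cell genes are Hbb (chr1:167663722-167663971), Klf1 (chr19:40158652-40158901) and Epb42 (chr3:128451684-128451933). Cybb (chrX:16065066-16065315) is the gene of the phagocyte oxidase, and Vsnl1 (chr6:39878557-39878806) and Gpm6a (chr16:43706462-43706711) are among the widest towards HC. These genes were chosen after their values were seen.
Hbb: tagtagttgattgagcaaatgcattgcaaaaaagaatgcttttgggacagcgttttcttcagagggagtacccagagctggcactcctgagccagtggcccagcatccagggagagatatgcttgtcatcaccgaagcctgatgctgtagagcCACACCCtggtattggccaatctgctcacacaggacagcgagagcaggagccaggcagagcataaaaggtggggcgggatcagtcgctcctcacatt
Klf1: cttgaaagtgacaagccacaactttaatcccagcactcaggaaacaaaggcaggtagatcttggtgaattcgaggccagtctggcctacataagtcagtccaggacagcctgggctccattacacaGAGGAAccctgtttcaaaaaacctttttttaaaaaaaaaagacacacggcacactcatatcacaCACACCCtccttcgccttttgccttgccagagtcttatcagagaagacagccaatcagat
Epb42: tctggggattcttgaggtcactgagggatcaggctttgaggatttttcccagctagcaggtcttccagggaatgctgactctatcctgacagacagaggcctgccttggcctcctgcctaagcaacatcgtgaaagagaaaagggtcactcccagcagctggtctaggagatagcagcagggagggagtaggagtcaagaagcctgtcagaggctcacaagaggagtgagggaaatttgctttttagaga
Cybb: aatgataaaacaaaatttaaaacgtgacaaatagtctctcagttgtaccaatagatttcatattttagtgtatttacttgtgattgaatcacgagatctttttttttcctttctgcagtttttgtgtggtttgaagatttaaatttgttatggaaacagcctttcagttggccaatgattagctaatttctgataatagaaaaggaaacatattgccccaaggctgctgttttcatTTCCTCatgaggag
Vsnl1: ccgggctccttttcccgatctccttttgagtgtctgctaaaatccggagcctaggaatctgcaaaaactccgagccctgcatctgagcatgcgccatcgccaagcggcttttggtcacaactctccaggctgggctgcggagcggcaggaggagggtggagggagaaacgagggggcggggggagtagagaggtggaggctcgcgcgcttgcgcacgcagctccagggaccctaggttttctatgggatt
Gpm6a: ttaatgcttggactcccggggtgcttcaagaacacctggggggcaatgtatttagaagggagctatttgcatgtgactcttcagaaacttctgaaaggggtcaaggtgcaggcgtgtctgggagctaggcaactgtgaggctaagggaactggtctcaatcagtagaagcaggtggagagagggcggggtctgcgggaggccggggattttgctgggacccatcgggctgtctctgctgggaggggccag

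Hbb and Klf1 hold CACACCC, Klf1 and Cybb hold GAGGAA or its complement, and the other 3 hold none of the 4 words. Of the red cell genes in the promoter table, 6 of 15 (40%) held CACACCC and 5 of 15 (33.3%) held AGATAA, against 6.05% and 10% of all 27457 promoters. AGATAA also stood in 3 of 6 platelet promoters (50%) and 20% of neutrophil promoters. CACACCC stood in 30% of promoters of the NK and cytotoxic list and 22.2% of those of blood lineage factors. GAGGAA stood in 10 of 15 monocyte promoters (66.7%), against 23.2% of all. It also stood in 66.7% of platelet, 58.3% of brain endothelium and mural and 52.6% of lysosomal promoters. In choroid plexus and ependyma (4 of 8), B cell (2 of 4) and microglia (4 of 8) promoters the share was 50%, and in red cell promoters 40%. Of 11 neuronal promoters, none held AGATAA, 2 (18.2%) held CACACCC and 3 (27.3%) held GAGGAA. A match is a description of the sequence and not a measured binding site.

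Red cell markers made up the group with the lowest median of all lists. Of 19 red cell genes on the array, all were present in blood and 7 in HC, and 18 were lower and 1 was higher in HC. The median difference was -5.20, against -0.12 over all genes with a symbol. The rhesus blood group genes Rhd (-6.54, raised -6.26) and Rhag (-5.20, raised -3.84) and the membrane protein gene Epb42 (-6.46) were lower, as were the transcription factors Gata1 (-5.72, raised -5.50) and Klf1 (-4.88). Xk, a red cell membrane protein that is also made in brain, was higher by 0.83 ± 0.155, but differed by -0.55 when scaled on the housekeeping panel. Of the 19, 12 were present in blood only and so nearly had to differ, and of the 7 present in both tissues 6 were lower.

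Markers of the other blood cells were lower in HC nearly throughout. All 19 T cell, 9 B cell and 9 platelet genes on the array were lower, as were the 10 kept genes of NK cells and cytotoxic granules and the 14 kept neutrophil genes. The medians were -3.70, -3.16, -4.46, -2.90 and -2.81. All but Cd3e, Gzmb and P2ry12 were present in blood only and so nearly had to differ, and these 3 were lower as well. Cd3e, a T cell receptor subunit, read 7.08, 7.08 and 7.27 in HC and 10.29, 9.59 and 10.44 in blood. Cd3g was not above background in HC. The B cell antigen Ms4a1 differed by -4.98 (-3.68 with HC raised), the platelet chemokine Pf4 by -6.26, the NK cell receptor Klrk1 by -5.85 (-4.42 with HC raised) and the neutrophil protein S100a9 by -5.33 (-4.92 with HC raised).

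Of 15 kept monocyte genes 13 were lower (median -2.93), but 11 of the 15 were present in blood only and were kept through it. Of the 4 present in both tissues, 2 were lower and 1 was higher, with a median of -0.09. Plac8 (-6.34, raised -6.30), Lyz2 and Cybb (-5.25) were the widest among them. Vcan, a matrix proteoglycan that astrocytes and their precursors make as well, was higher by 0.87 and differed by -0.50 when scaled on the housekeeping panel, and Cx3cr1, the fractalkine receptor that microglia share with monocytes, was not called (0.19).

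Blood cell markers were also read in the HC arrays. The mean level of the 19 red cell genes was 5.98 to 6.09 in the HC arrays and 10.68 to 10.91 in the blood arrays. For the 19 T cell genes it was 4.86 to 4.93 and 8.35 to 8.94, and for the 16 neutrophil genes 4.60 to 4.65 and 7.53 to 8.13. The globins were present in HC, with Hbb at 8.38 to 8.90, whereas Ahsp, S100a9, Ms4a1 and Cd3g were not above background there. The part of blood left in the tissue in the HC values was not tested.

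Markers of neurons, astrocytes and oligodendrocytes were higher in HC nearly without exception. All 20 neuronal genes were present in HC, 7 of them also in blood, and all 20 were higher (median 5.18). The 7 present in both tissues were higher too (median 3.62), and the others were kept through HC only and so nearly had to differ. Besides Snap25 and Syt1, the list held the dendritic protein Map2 (6.65, raised 6.13), the neurofilament Nefl (6.26, raised 5.76), the vesicle protein Syp (6.14) and the glutamate transporter Slc17a7 (5.97). All 14 astrocyte genes were higher (median 4.52), including the 5 present in both tissues (median 2.33). The other astrocyte genes were likewise kept through HC only. The glutamate transporter Slc1a2 differed by 6.92 (6.63 with blood raised), the water channel Aqp4 by 5.36, and Gfap, the intermediate filament of astrocytes, by 5.29 ± 0.187 (raised 5.18). Gfap read 10.56, 10.69 and 10.86 in HC and 5.48, 5.71 and 5.04 in blood. Of 15 oligodendrocyte genes, 14 were higher (median 3.82), with Ermn (4.99, raised 4.29) and Mobp (4.83, raised 4.50) among the widest, and Sox10, the factor of the lineage, was not called (0.28). Of the 5 oligodendrocyte genes present in both tissues, 4 were higher (median 1.83), and the others were kept through HC only.

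Of 13 kept interneuron genes, 11 were higher in HC, 1 was lower and 1 was not called (median over 15 genes on the array, 2.51). Of these, 9 were present in HC only and were kept through it. Of the 4 present in both tissues, 2 were higher and 1 was lower (median 0.97), near the background of 49.8% higher. Gad2 and Gad1, the enzymes that make GABA, differed by 5.64 (raised 4.71) and 4.44 (raised 4.23), the calcium buffer Calb1 by 5.06 (raised 3.51) and Pvalb, the marker of fast-spiking cells, by 2.86 (raised 2.78). Npy, neuropeptide Y, was lower: it read 9.66, 9.70 and 9.65 in HC and 12.46, 12.24 and 12.63 in blood, a difference of -2.77 ± 0.144 (limma, adjusted p = 1.04e-06). It was thus well present in HC, and its blood values were higher in each of the 3 rats.

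Microglia and vessel genes were divided. Of 12 kept microglial genes, 6 were higher and 4 lower in HC. Of the 6 present in both tissues, 1 was higher and 3 were lower. The median over 14 genes was 0.23, which turned to -1.14 when scaled on the housekeeping panel and to -0.09 when scaled on the median of shared probe sets. The complement genes C1qa (1.99), C1qb (0.91) and C1qc (0.95) and the factor Sall1 (1.79) were higher. P2ry12, which platelets also carry, differed by -0.93 and Aif1, which monocytes share, by -0.90 ± 0.145. Aif1 read 6.11, 6.30 and 6.11 in HC and 7.01, 6.97 and 7.23 in blood. Of 17 kept endothelial and mural genes, 15 were higher and 1 lower (median 0.86, or -0.51 when scaled on the housekeeping panel). Of the 7 present in both tissues, 5 were higher and 1 lower (median 0.70), and the others were kept through HC only. The transporters of the blood-brain barrier Slco1c1 (4.22, raised 4.11) and Slco1a4 (3.98, raised 3.25) led, and Pecam1, an adhesion protein that platelets and leukocytes also carry, was lower (-1.38).

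Genes that mark the fields of HC were higher in 14 of 16 kept cases, with a median of 2.61, and in 7 of the 8 present in both tissues (median 1.48). The others were kept through a single tissue and so nearly had to differ. Prox1, the factor of dentate granule cells, stood at 8.57, 8.70 and 8.55 in HC and at 5.10, 5.19 and 4.12 in blood, a difference of 3.81 ± 0.206 (3.09 with blood raised). Spock1 differed by 4.13 (raised 3.84), Pcp4 by 3.59, Grik4, a kainate receptor subunit, by 3.48 (raised 3.35) and Wfs1 by 3.47. Man1a1 (-0.82) and Grp (-0.66) were lower. Choroid plexus and ependyma showed no common direction: 6 of 13 genes were kept, and 2 were higher and 3 lower. Ttr, the thyroid hormone carrier of the choroid plexus, differed by 5.32 ± 0.313 (raised 4.90) and was widely spread within HC, at 11.20, 10.09 and 9.96 in rats 2, 5 and 7. Enpp2, which oligodendrocytes share, also read highest in rat 2, at 10.46, 10.03 and 9.74. The mean level of all 13 choroid plexus and ependyma genes in HC was 6.64, 6.25 and 6.23 in rats 2, 5 and 7. Aqp1, a water channel of both choroid plexus and red cells, was lower by -5.78. How much choroid plexus each punch held was not tested.

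Kept transcription factors of the blood lineages were lower in HC, and most neural ones were higher. All 21 kept factors of the blood lineages were lower in HC (median -2.58 over 23), among them Nfe2 (-4.83), Lyl1 (-4.47), Ikzf1 (-4.01, raised -3.97) and Spi1 (-2.91), the gene of PU.1. The 4 present in both tissues were lower too (median -0.98), and the others were kept through blood and so nearly had to differ. Of 20 neural factors, 15 were higher (median 1.68), and of the 13 present in both tissues 8 were higher and 2 lower (median 1.38). Among all genes present in both tissues, 49.8% were higher and 22% lower. The other neural factors were kept through HC only. Neurod6, of pyramidal neurons, differed by 5.49 (raised 4.98), Nfib by 5.04 (raised 4.12) and Myt1l by 3.89 (raised 3.83). Lower were Pou3f2 (-0.68) and Pou3f3 (-0.34), and Pou3f3 lost its call when any 1 of the 3 rats was left out. Of 17 RNA-binding proteins of neurons, 16 were higher (median 2.51), including Khdrbs3 (4.86), Rbfox1 and Elavl2 (4.48, raised 3.14). All 7 present in both tissues were among them, and the rest were kept through HC only. General splicing factors were all present in both tissues, and of 24, 10 were higher and 3 lower, with 11 not called. Their median of 0.29 turned to -0.10, -0.03 and -1.08 under quantile normalization, scaling on shared probe sets and scaling on the housekeeping panel.

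Of 23 ion channel subunits of excitable membranes, 21 were higher in HC (median 3.39), of which 17 were present in HC only and were kept through it. Of the 5 present in both tissues, 4 were higher and 1 was lower (median 2.09). The sodium channel subunits Scn3b (6.30, raised 5.64) and Scn2a (6.11, raised 4.82), the calcium channel subunit Cacna2d1 (5.61, raised 4.44) and the potassium channel Kcnd2 (5.04, raised 4.82) led the list. The 2 that were lower are potassium channels known from lymphocytes and red cells. Kcnn4 read 5.56, 5.57 and 5.57 in HC and 9.34, 9.2 and 9.36 in blood, a difference of -3.73 ± 0.131. Kcna3 was present in both tissues and differed by -0.43 (limma, adjusted p = 0.0171), a call that was lost without rat 7 (-0.37, adjusted p = 0.105).

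Signalling proteins of 3 further families were compared. Of 24 kept subunits of heterotrimeric G proteins, 11 were higher and 7 lower, near the shares over all kept genes (51% and 28.5%). Of the 17 present in both tissues, 6 were higher and 5 lower. The list median of 0.25 turned negative under each of the 3 scalings, to -0.12, -0.07 and -1.12. Gnao1, the main G protein of neurons, differed by 5.39 ± 0.156 (raised 5.36) and Gnai1 by 4.51 (raised 4.28), while Gngt2 (-2.03) and Gna15 (-1.57), of blood cells, were lower. Of 21 adenylyl cyclases and phosphodiesterases, 13 were higher and 1 lower (median 1.32, or -0.06 when scaled on the housekeeping panel). Of the 10 present in both tissues, however, 3 were higher and none lower (median 0.05), below the background of 49.8% higher. The calmodulin-regulated enzymes Pde1a (5.18, raised 3.95) and Adcy1 (4.46) were the widest, and 7 were not called, among them Pde4b (0.16) and Pde4d (-0.15). Of 17 kept phosphoinositide 3-kinase and phospholipase C genes, 8 were higher and 8 lower. Of the 7 present in both tissues, 4 were higher and 3 lower, and the others were kept through a single tissue and so nearly had to differ. Plcb1 (4.0, raised 3.97) and Pik3r3 (2.70, raised 2.42) were higher, and Pik3ap1 (-2.86) and Pik3cd (-2.79), of lymphocytes, were lower. The median of 0.06 of this list turned to -0.05, -0.27 and -1.32 under quantile normalization, scaling on shared probe sets and scaling on the housekeeping panel.

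The 5 subunits of the phagocyte oxidase on the array, an enzyme that makes superoxide in neutrophils and monocytes, were present in blood only and lower, with a median of -2.95. Cybb, its catalytic subunit, read 5.22, 5.45 and 5.49 in HC and 10.63, 10.61 and 10.66 in blood. Enzymes of eicosanoid synthesis went both ways. The lipoxygenases Alox15, Alox12 (-4.67, raised -3.75) and Alox5 (-1.54), and Ptgs1 (-2.53) and Tbxas1 (-1.65), which make thromboxane in platelets, were lower. Ptgds, which makes prostaglandin D2 in brain, was higher by 3.39 ± 0.19 and Ptgs2, the inducible cyclooxygenase that neurons also make, by 2.92. In all, 5 of 14 kept were higher and 8 lower (median over 18, -0.49). All 8 lower genes were present in blood only, and of the 4 present in both tissues 3 were higher and none lower, with a median of the opposite sign (0.88).

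Most genes of energy metabolism were present in both tissues and higher in HC. Among all genes present in both tissues, 49.8% were higher and 22% lower. All 16 genes of the tricarboxylic acid cycle were present in both tissues, and 15 were higher and none lower (median 1.5; 0.13 when scaled on the housekeeping panel). Sucla2 differed by 2.70 ± 0.155 and Idh3a by 2.59. Of 20 glycolysis genes present in both tissues, 18 were higher and 1 lower (median 1.5). Over the 25 on the array the median was 1.45, or 0.07 when scaled on the housekeeping panel. The neuronal enolase Eno2 (6.08) and the astrocyte aldolase Aldoc (6.03) stood far above the others, which were led by Pfkm (4.28). Lower were Pklr, the pyruvate kinase of red cells (-2.37), Pgam2 (-1.02) and Hk2 (-0.48). Of 25 respiratory chain genes, 20 were higher and 1, Cox6a1 (-0.67), lower. Ndufs1 (2.43) and Sdha (2.19) were the widest. Their median of 1.11 turned to -0.27 when scaled on the housekeeping panel.

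Other pathways went different ways. Of 14 cholesterol synthesis genes present in both tissues, 10 were higher and none lower (median over 16 on the array, 1.40; 0.02 when scaled on the housekeeping panel). Sc5d (3.21) and Msmo1 (2.53), of the late steps, were the widest, while Fdps, Mvk, Ebp and Mvd were not called. The pentose phosphate pathway, which supplies red cells with reducing power, had no gene higher, and 4 of 6 were lower (median -0.62), including Rpia (-1.83) and Taldo1 (-1.38). Of 20 kept genes of amino acid and transmitter metabolism, 14 were higher and 5 lower (median over 22, 1.34; -0.04 when scaled on the housekeeping panel). Next to Gad2 and Bcat1, Abat, which degrades GABA, differed by 4.39 (raised 4.16), whereas Asl (-2.06) and Shmt1 (-1.63) were lower. Of 14 kept genes of polyamine, nucleotide and purine salvage, 6 were higher and 6 lower (median over 15, -0.13). Hprt1 (1.26) and Ampd3 (1.16) were higher, but came to -0.11 and -0.21 when scaled on the housekeeping panel, and Xdh (-3.73) and Tk1 (-2.28) were lower.

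Genes of cell division and of protein synthesis were lower in HC. Of 15 kept genes of DNA replication and mitosis, 14 were lower and none higher, with Cdc20 at -3.53 and Tpx2 at -2.54, and Pcna was not called (-0.22). The median over 22 was -1.62. Of the 15, 11 were present in blood only and were kept through it, and of the 4 present in both tissues 3 were lower (median -0.66). All 27 cytosolic ribosomal protein genes were present in both tissues, and 23 were lower, none was higher and 4 were not called. Their median was -0.95, and it lay between -2.32 and -1.13 under the 3 other scalings. Rplp0 had values of 9.93, 9.90 and 9.93 in HC and 11.76, 11.52 and 11.83 in blood, a difference of -1.79 ± 0.136 (limma, adjusted p = 8.29e-06), and Rps15 differed by -1.65. Ribosomal protein genes have many near-identical pseudogenes, with which their probes may share signal.

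The proteasome was divided by subunit. Of 27 genes, 16 were higher and 8 lower (median 0.58, or -0.80 when scaled on the housekeeping panel). Psmd1 (1.93) and Psmc5 (1.72), of the regulatory particle, were the widest towards HC. The 3 catalytic subunits of the immunoproteasome, the form that prepares peptides for antigen presentation, were lower, namely Psmb9 (-3.11), Psmb8 (-2.83) and Psmb10 (-1.28). So were Psme1 (-1.87) and Psme2 (-1.43), of its activator. The standard catalytic subunits Psmb5 and Psmb7 were higher, by 1.09 and 0.95, and Psmb6 was lower (-0.52). Psmb9 read 5.80, 5.95 and 5.81 in HC and 9.09, 8.67 and 9.12 in blood.

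Lysosomal enzymes were higher in 8 and lower in 9 of 22 cases (median -0.24). Ctse (-5.06) and Ctsc (-2.76), cathepsins of blood cells, were lower, and Gaa (2.54) and Ctsl (2.43) were higher. Of 9 genes for the removal of organelles and proteins in maturing red cells, 6 were lower and 2 higher (median -2.39). Alox15 was the lowest (-7.61), and the ubiquitin ligases Mkrn1 (-3.80) and Trim10 (-3.60) and the mitophagy receptor Bnip3l (-2.39) were lower, and Fbxo9 was higher (2.08). Ulk1 was higher by 0.63, but differed by -0.75 when scaled on the housekeeping panel and lost its call under the other scalings and without rat 7.

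The cytoskeleton showed a contrast between its filaments. All 25 microtubule and motor genes were present in HC and all were higher (median 2.90, at least 1.53 under the other scalings). These included all 17 that were present in blood as well, and the rest were kept through HC only. Map2 (6.65, raised 6.13), Map1b (5.97) and Stmn2 (5.66, raised 4.91) were the widest, and Tubb5, a tubulin of dividing and other cells, the narrowest (0.65). Tubulin genes are alike in sequence, so their probes may share signal. Actin regulators were split, with 11 higher and 12 lower of 28 (median -0.01). Pfn2, the neuronal profilin, differed by 6.98 (5.76 with blood raised) and Wasf1 by 4.57, whereas Lcp1, the plastin of leukocytes, differed by -3.64 and Arpc1b by -3.45. Actb, which encodes beta actin, was not called (-0.04), nor were the Arp2/3 subunits Arpc2 (0.09) and Arpc3 (0.02).

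**Figure D3:**
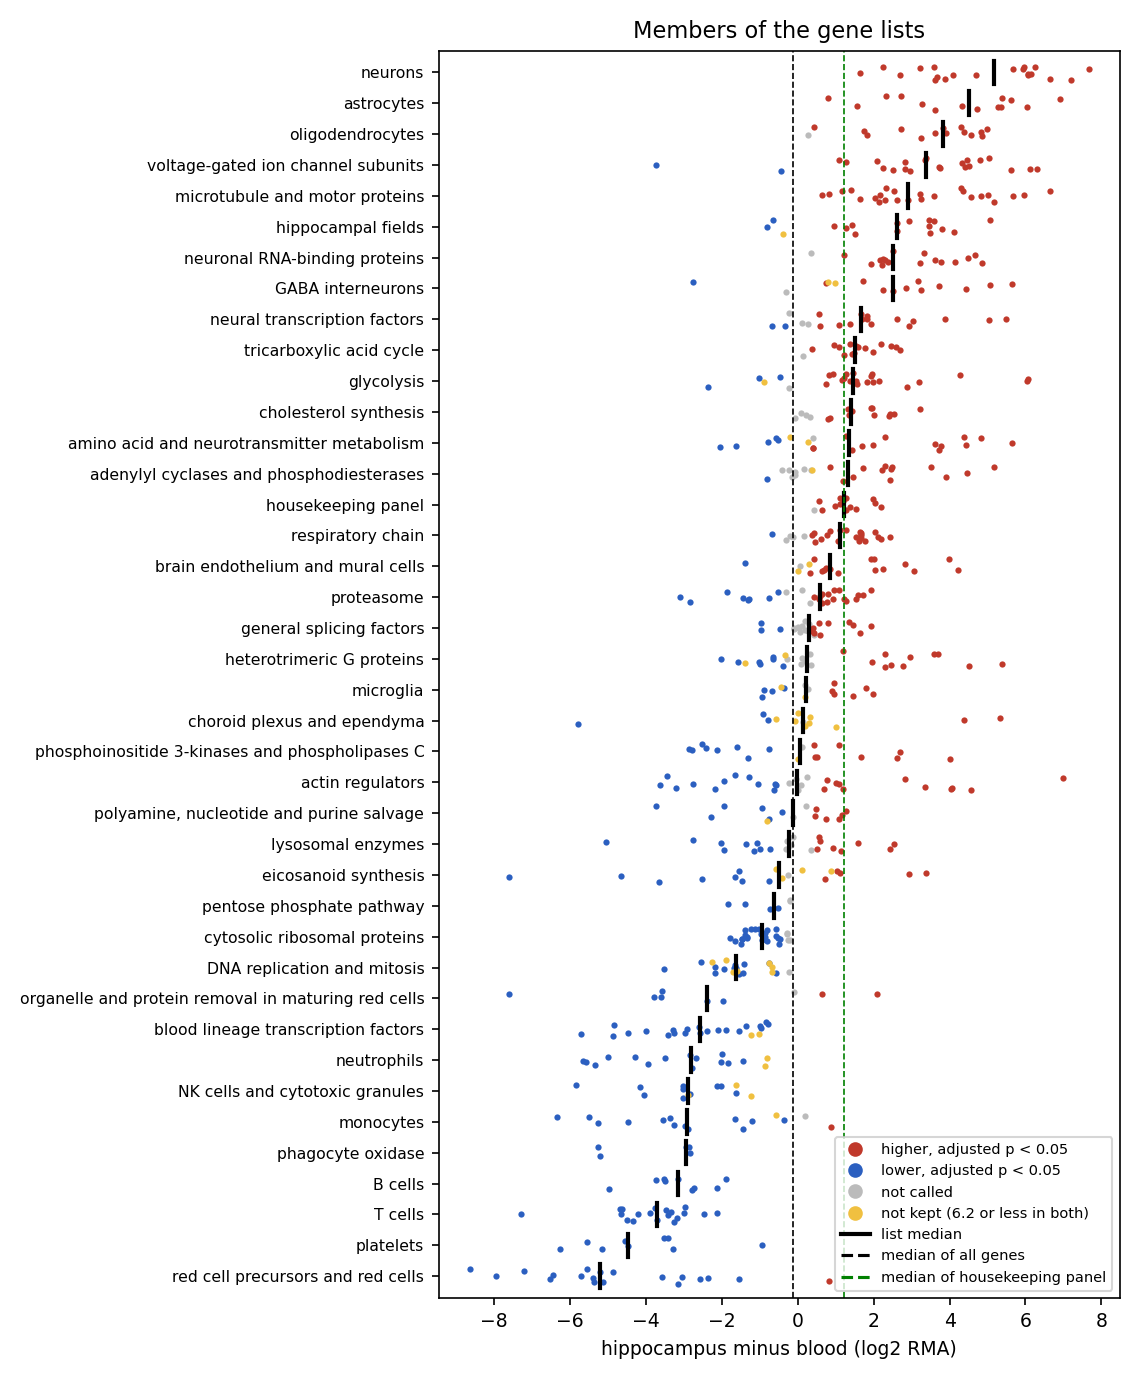
HC minus blood difference (x axis, log2 RMA) of each member of the gene lists described in the text (rows), with red for higher, blue for lower, grey for not called and yellow for genes at or below 6.2 in both tissues. Thick black bars are list medians, the dashed black line is the median of all genes (-0.12) and the dashed green line that of the housekeeping panel (1.22). Neurons have the highest median (5.18) and red cells the lowest (-5.20).

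Related genes were then set side by side, since many protein families have a member known from neurons or widely used and another known from blood cells. Of 53 such pairs, 42 had both members named on the array. The first member was higher in HC in 38 pairs and lower in 1, and the second was lower in 34 and higher in 6. Among all kept genes, 51% were higher and 28.5% lower, which are shares of single genes. In 30 pairs the first was higher and the second lower, and no like share over other pairs of genes was computed. Several members, such as Snap25, Aqp4, Alas2 and Slc4a1, were present in a single tissue and so nearly had to differ. The pairs were picked for known use in neurons or blood, with earlier results of these data known, so the counts are a description. Under quantile normalization and scaling on shared probe sets 28 pairs were split, and under scaling on the housekeeping panel 25.

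The splits ran through membrane fusion, the membrane skeleton, transport and metabolism. Snap25 was higher by 7.67 and Snap23, its counterpart outside neurons, differed by -1.94. In the membrane skeleton, Ank2 (5.36) was higher and Ank1 (-3.16) lower, as were Epb41l1 (3.99) and Epb41 (-5.48), and Sptbn1 (1.92) and Sptb (-2.36). Among transporters and channels, Slc4a10 (5.10, raised 4.69) and Aqp4 (5.36) were higher, and Slc4a1 (-7.2) and Aqp1 (-5.78) lower. Pls3 (4.07, raised 3.08) and Lcp1, Pygb (3.70) and Pygl (-3.10), and Dnm1 (5.57) and Dnm2 (-0.61) followed the same pattern. Alas1, the housekeeping enzyme of heme synthesis, read 8.83, 8.83 and 8.84 in HC and 7.73, 7.61 and 7.75 in blood. It was higher by 1.13 ± 0.13, but came to -0.24 when scaled on the housekeeping panel, while Alas2 differed by -7.95.

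Not all pairs were divided. Both members were higher in 6 pairs, whose second members were Kif5b (2.04), Dync1i2 (1.40), Eno1 (1.57), Aldoa (1.82), Ldha (0.75) and Camk1d (2.64). When scaled on the housekeeping panel, Ldha turned to -0.63, and Dync1i2 (0.03) and Eno1 (0.20) lost their calls. Both were lower in 1 pair, Plcg1 (-0.77) and Plcg2 (-2.43, raised -2.41). Arpc1a (-0.24), Jak1 (-0.24) and Rac1 (0.23) were not called, while their partners Arpc1b (-3.45), Jak3 (-1.89) and Rac2 (-5.21) were lower. The difference of the first member exceeded that of the second in 42 of 42 pairs. The choice of the pairs favoured this order in advance, so it is a description. Adding a constant to all values of an array does not change it.

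**Figure D4:**
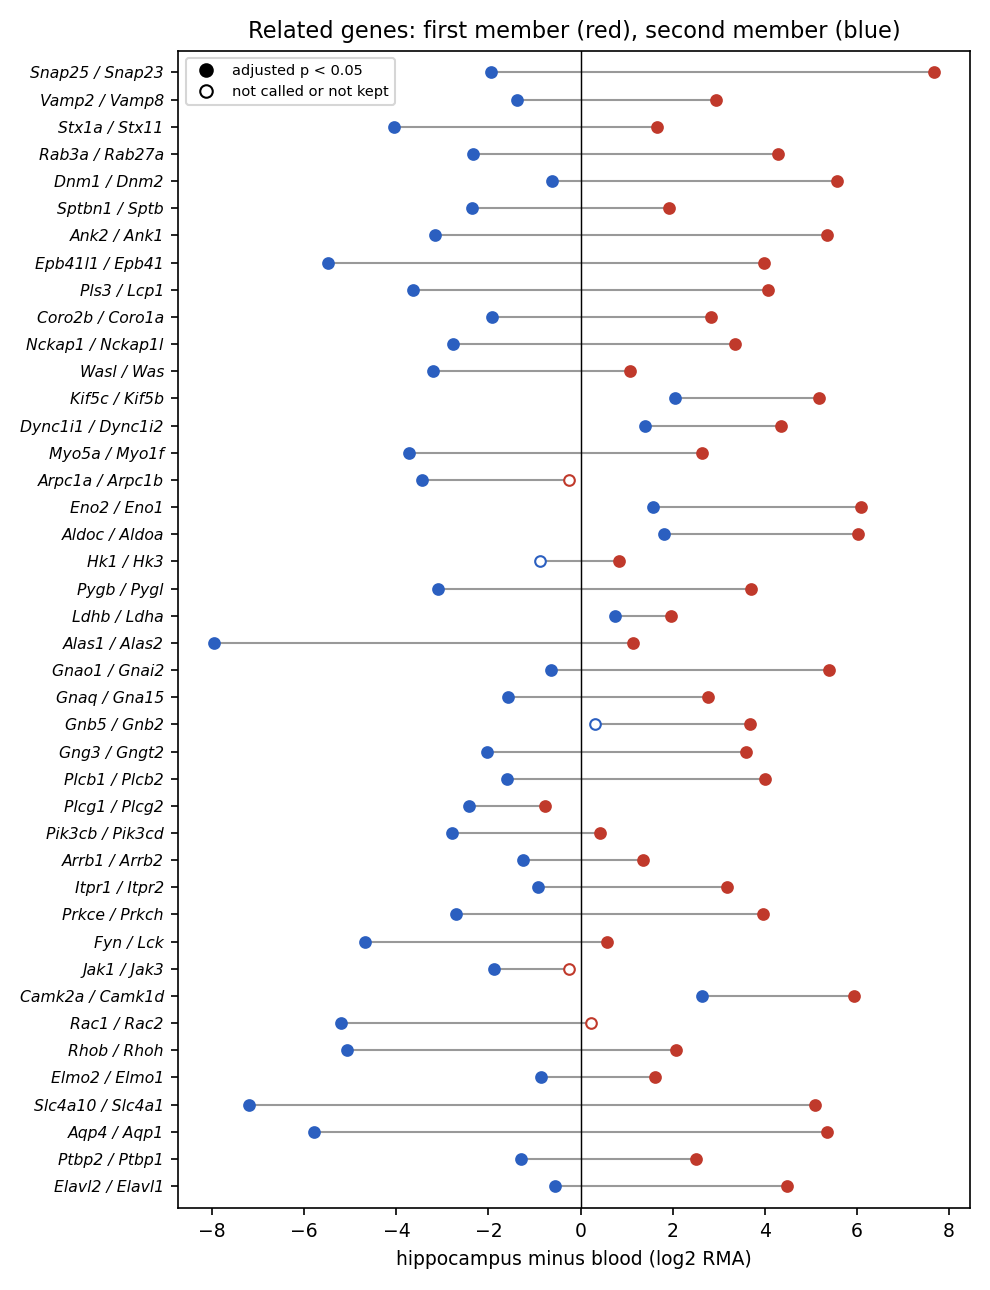
HC minus blood difference (x axis, log2 RMA) of the first member (red) and second member (blue) of 42 pairs of related genes (rows), joined by a line. Filled points passed an adjusted p under 0.05 and open points were not called or not kept. The red point lies to the right of the blue one in each row.

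Expression at a like level was shown for a minority of the shared probe sets. The 95% confidence interval of the difference lay within 0.5 of 0 for 1384 of the 10789 present in both tissues (12.8%). This count fell to 393 without rat 2 and to 538 without rat 7. The 10 named genes with the narrowest intervals were the lipid kinase Sphk2, Letm2, Gigyf1, Tarbp2, Gcfc2, the nuclear receptor Esrra, Lmf2, Bysl, Pdp2 and Zfp90. Tarbp2, a partner of Dicer, read 6.95, 6.95 and 6.95 in HC and 6.96, 6.94 and 6.94 in blood, a difference of 0.00 with an interval of -0.30 to 0.30. Esrra read 7.16, 7.18 and 7.17 in HC and 7.16, 7.2 and 7.19 in blood. These genes moved with the scaling: all 10 were lower in HC when scaled on the housekeeping panel, for example Esrra by -1.39 and Tarbp2 by -1.37. The like levels thus hold for the deposited scale only.

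The arrays of the rats were spread more widely in blood than in HC. Each rat had a single array per tissue, so differences between rats cannot be told apart from those of sampling, extraction or array. Gzmk, a granzyme of cytotoxic T cells, read 8.62, 4.84 and 8.56 in the blood of rats 2, 5 and 7, and 4.26 to 4.42 in HC, and the chemokine Ccl5 read 10.16, 8.24 and 10.31 in blood. Rat 5 was the low one for both, and it was also the lowest in the mean level of the NK and cytotoxic list, at 6.64 against 7.74 and 7.64, and of the T cell list, at 8.35 against 8.90 and 8.94. Its neutrophil list was the highest, at 8.13 against 7.71 and 7.53. The median difference of the NK and cytotoxic list was -1.77 in rat 5 and -3.32 and -3.09 in rats 2 and 7, and that of the neutrophil list was -3.47, against -2.69 and -2.66. Gzmk differed by -3.02 ± 0.644 (raised -2.46) and Ccl5 by -3.71 ± 0.357. Fbln1 (-1.57 ± 0.626) varied most in the other direction, at 9.77, 10.33 and 6.47 in blood, so that rat 7 was higher in HC and the others lower. Psat1, an enzyme of serine synthesis, read 7.81, 5.42 and 5.93 in blood and was higher in HC by 3.73.

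Within HC the widest spreads were in a handful of genes. The zinc transporter Slc39a12 read 7.85, 7.74 and 6.05 in rats 2, 5 and 7, the calcium pump Atp2b3 9.09, 7.39 and 9.06, the interferon-induced gene Mx2 7.55, 6.18 and 7.59, and Prss35 5.61, 7.11 and 6.7. Slc39a12 (2.23, raised 1.70) and Atp2b3 (2.07) were higher in HC and Mx2 (-1.35) was lower, and Mx2 lost its call without rat 5. A difference between rats that both tissues share was tested with the rat terms of the same fit (limma, F-test, chosen after seeing the data). It called 0 of 16697 probe sets at an adjusted p under 0.05, with 320 (1.92%) at an unadjusted p under 0.05. With 2 residual degrees of freedom, the absence of calls does not show that the rats share no difference.

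The direction of widely used genes depended on the scaling. Of the 14 genes of the housekeeping panel, all present in both tissues, 13 were higher in HC and 1 was not called, with a median of 1.22, and by construction this turned to -0.15 when the arrays were scaled on them. Relative to that panel, the medians of the tricarboxylic acid cycle, glycolysis and cholesterol synthesis were 0.28, 0.23 and 0.18 above, and those of neurons and microtubule genes 3.96 and 1.68 above. The median of the ribosomal proteins minus that of the panel was -2.17, and that of the red cells -6.42. Of 41 lists, 24 had a median above 0 as deposited, 21 under quantile normalization, 19 when scaled on shared probe sets and 12 when scaled on the housekeeping panel. The lists that kept a positive median throughout include neurons, astrocytes, oligodendrocytes, interneurons, ion channels, microtubule genes, neuronal RNA-binding proteins, neural factors and the genes of HC fields.

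**Figure D5:**
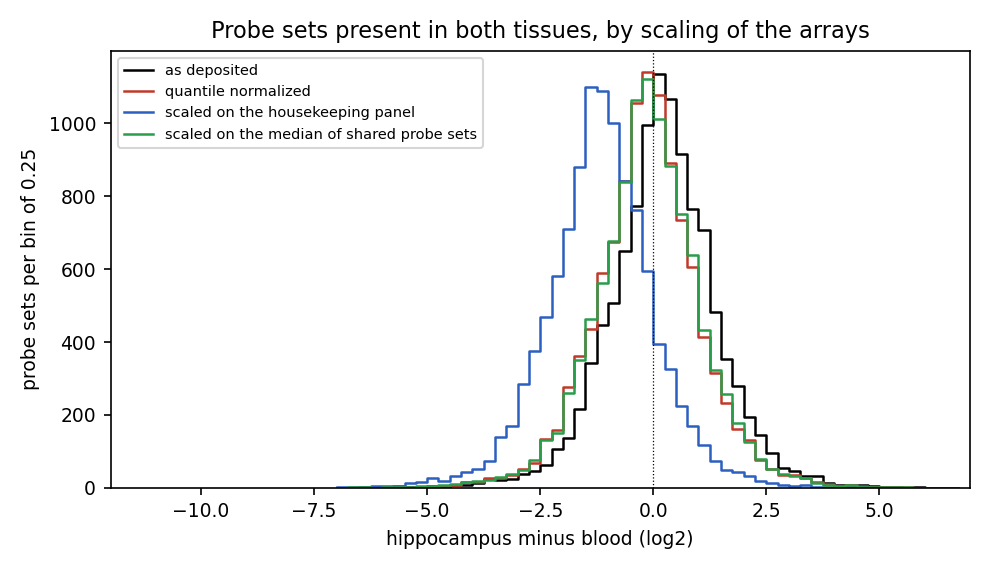
Number of probe sets present in both tissues (y axis, per bin of 0.25) by HC minus blood difference (x axis, log2), as deposited and under 3 other scalings of the 6 arrays. Quantile normalization and scaling on shared probe sets move the distribution left by -0.31 and -0.33, and scaling on the housekeeping panel by -1.37.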

How the data were processed

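HC and blood of 3 rats were measured on 6 arrays, grouped by the tissue and rat number in the sample labels. Labels and methods mention more rats than the arrays hold, and the methods state that a sample failed the quality criteria. The authors quantile normalized the intensities, summarized them with RMA in the Affymetrix power tools and deposited 1 value per probe set, read here as log2 (robust multi-array average works on that scale). The detection p-values, which the authors required beside the cut-off, were not used here. Of 29214 probe sets with a value, 15310 had exactly 1 gene symbol and 323 had several, per the array annotation. For 15303 the symbol was found in a RefSeq gene table (GRCr8), and 14506 symbols were distinct.

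Kept probe sets (mean above 6.2 in at least 1 tissue) were fitted in R 4.3.3 by limma 3.58.1, using fixed terms for tissue and rat, empirical Bayes moderation and Benjamini-Hochberg adjustment, called at an adjusted p under 0.05. Rat was kept as a block because both samples of a number come from 1 animal. The deviations of the tissues of a rat correlated by only 0.032, 0.047 and 0.026. The fit has 2 residual degrees of freedom and 5.63 prior ones. An exact sign-flip test over 3 rats cannot go below p = 0.25, so none is given. The number of arrays limits the precision: in simulated data, 78.5% of planted differences of 0.5 and 98% of those of 1 were called, and 5.5% of planted zeros.

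The members and lists (41 gene lists, 53 gene pairs) were chosen with earlier results of these data known, and no list was tested. The values of 1 of these lists are not reported here. Named were the 10 widest in each direction over all kept probe sets and over those present in both tissues, the 2 widest per list and direction, fixed markers, the pair members, the 10 narrowest intervals and the 5 widest SDs per tissue. Other members of lists were named after their values were seen. The alternatives covered scaling, filter, cut-off, block, variance model, threshold, 1 probe set per gene, raised background, PFC arrays added and each rat left out. Random blocks used statmod 1.5.0, and figures matplotlib 3.10.9 in Python 3.11.15.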

Additional observations from a re-analysis of the deposited data

How the results depend on the processing

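Scaling on the housekeeping panel gave 2690 probe sets higher and 11777 lower in HC, with 914 and 8304 among those present in both tissues, 1040 present in HC only, 8430 in blood only, 523 equal in both tissues and 12 lists with a median above 0. Under it 14 named genes changed direction: Xk (-0.55), Vcan (-0.50), Hprt1 (-0.11), Ampd3 (-0.21), Ulk1 (-0.75), Wasl (-0.29), Hk1 (-0.54), Alas1 (-0.24), Pik3cb (-0.94), Pik3r1 (-0.92), Arrb1 (-0.02), Fyn (-0.80), Src (-0.23) and Ldha (-0.63). Quantile normalization turned Pik3cb (-0.07) and Pik3r1 (-0.02). The shift of all values follows from the construction of these scalings, and which scaling fits HC and blood was not tested. A stricter filter, above 6.2 in both tissues, gave 4837 higher and 3168 lower. No filter gave 12348 lower, a mean above 7.2 in 1 tissue 3686 lower, and 1 probe set per gene 2837 lower. Tested against a difference of 1 (treat), 3502 were higher and 2130 lower, with 1460 and 886 among the shared. Present in both were 5815 at a cut-off of 7.2. With 1 probe set per gene, 6610 were present in both, 1802 in HC only and 1409 in blood only.

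Without the rat as a block, 7630 were higher and 5861 lower, against 7552 and 5778 with this pairing. Leaving out each rat gave 7103 to 7173 higher and 5341 to 5647 lower, while the probe sets equal in both tissues ranged from 393 (without rat 2) to 1213, with 538 without rat 7. Fbln1 lost its call without the block, with the PFC arrays added, with background raised, under quantile normalization and without rat 5. Of the kept probe sets, 8.08% had a blood mean and 2.56% an HC mean at or below background, so only a limit on their difference was measured.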

Other observations

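A probe set of H2az1, a histone variant gene, read high in all 3 tissues of rat 7. Its values in rats 2, 5 and 7 were 8.99, 9.03 and 10.61 in HC, 9.03, 8.15 and 10.44 in blood, and 8.87, 9.25 and 10.75 in PFC. It ranked among the widest SDs in HC and in blood, and no other named gene did so in both. The other probe set of the gene, at means of 10.1 in HC and 10.01 in blood, had SDs over the 3 rats of 0.057 in HC and 0.284 in blood. Of 386 genes with several kept probe sets, 16 had probe sets called in opposite directions.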
